A study of Mus musculus with 6 samples.

Results

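DNA methylation in mammals rests on a small set of genes, of which 8 were followed here: Dnmt1, Uhrf1 and Hells (maintenance), Dnmt3a and Dnmt3b (de novo methylation) and Tet1, Tet2 and Tet3 (removal by oxidation). They were chosen by symbol, with earlier results of these data known. All 8 had at least 1 probe set annotated to that gene alone, 11 probe sets in all, and they are 8 of the 19938 genes measured. The samples were liver cells of CyclinB1-GFP transgenic mice aged 3.5 weeks, already weaned, which carry a green fluorescent protein (GFP) reporter named after cyclin B1. The livers of 3 mice were taken apart into single cells, and flow sorting gave 3 GFP-positive samples (called replicating in the labels) and 3 GFP-negative samples (called quiescent), each hybridised to 1 Affymetrix array. The promoter that drives the reporter was not given in the sources used here, nor was the sex of the mice. The comparison asks how the expression of these genes differs between replicating and quiescent cells of a growing liver.

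When DNA is copied, the new strand carries no methyl groups, and each methylated CpG is left half-methylated. Uhrf1 recognises such sites and brings in Dnmt1, which methylates the new strand, while Hells, a chromatin remodelling helicase also known as Lsh, opens packed chromatin to this machinery. Dnmt3a and Dnmt3b methylate CpGs with no mark on either strand, and the Tet dioxygenases oxidise methylcytosine, after which the mark is lost by base excision or by dilution through replication. In the liver, hepatocytes divide for some weeks after birth and later are mostly at rest.

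Values are log2 of the deposited intensities, differences are GFP-positive minus GFP-negative with the standard error from limma, and a gene rose or fell if its Benjamini-Hochberg adjusted p over all 19938 genes was below 0.05. The labels call the samples biological replicates numbered 1 to 3 in each group, and precision is limited by there being 3 arrays a group. Number 2 stood apart in both groups by a high Xist (9.03 and 9.80, against 3.73 to 4.04 on the other arrays), so results without it are given where a call changes. The log2 array medians lay between 4.60 and 4.74, and a level below them is hard to tell from background. Of 12 hepatocyte markers 11 were measured, with group means from 8.42 to 13.31, and none of them rose or fell. Their summed intensity was 64856 to 67038 in the GFP-negative and 57947 to 62669 in the GFP-positive arrays. Of the markers of other liver cells, Clec4f of Kupffer cells fell (difference -0.68 ± 0.13, adjusted p = 0.032) and no other marker rose or fell. Calls were rare over all genes too, of which 1.55% rose and 0.115% fell. Summed over the list, the 10 Kupffer cell markers had intensities of 223 to 276 in GFP-negative cells and of 191 to 208 in GFP-positive cells, and the 10 endothelial markers 433 to 570 and 364 to 406. The 10 stellate cell markers came to 423 to 483 and 316 to 370. The sums were 377 to 403 and 226 to 324 for 6 of 10 erythroid markers (no globin among them), 143 to 210 and 121 to 147 for 8 neutrophil markers, 128 to 175 and 142 to 148 for 9 of 10 lymphoid markers, and 111 to 124 and 111 to 121 for 5 of 7 cholangiocyte markers. Both group means lay below the array medians for 7 of 10 Kupffer cell, 3 of 10 stellate cell and 0 of 10 endothelial markers. They did so for 3 of 6 erythroid, 5 of 8 neutrophil, 8 of 9 lymphoid and 4 of 5 cholangiocyte markers. These sums therefore hold signal that is hard to tell from background. The part of these other cells in the results below was not tested. In bulk samples such as these, fewer cells of a type and less RNA per cell cannot be told apart.

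Of the 3 maintenance genes, Hells and Uhrf1 rose in GFP-positive cells, and Dnmt1 did not pass the test although its groups did not overlap. None of the 2 de novo genes and none of the 3 Tet genes rose or fell. Hells was 2.98-fold and Uhrf1 1.83-fold higher, while the de novo and Tet differences lay between -0.16 and 0.10 on the log2 scale. So 2 of the 8 genes rose and none fell, where 1.55% of all genes rose and 0.115% fell. All 3 maintenance genes had every GFP-positive array above every GFP-negative array, as did 6.82% of all genes, and no de novo or Tet gene did. The 8 genes were chosen with earlier results of these data known, so these counts are description. The median difference was 0.87 over the maintenance genes, 0.04 over the de novo genes and -0.11 over the Tet genes, beside -0.03 over all genes.

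**Figure D1:**
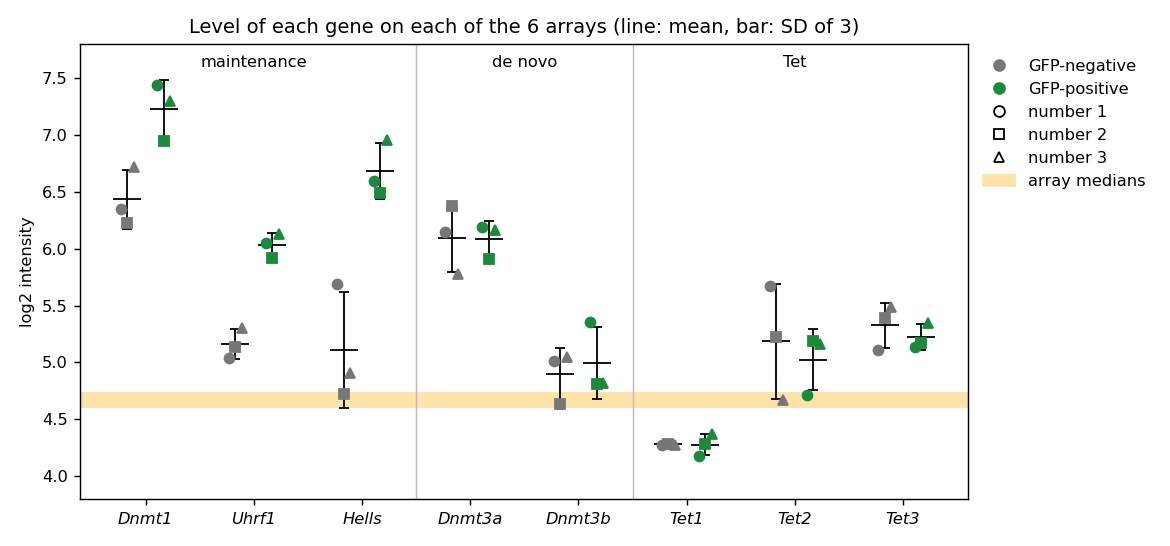
Log2 intensity of the 8 genes (one column pair per gene) on the 3 GFP-negative (grey) and 3 GFP-positive (green) arrays, with the marker shape giving the replicate number, the line the mean, the bar the SD of 3 arrays and the shaded band the array medians from 4.60 to 4.74. The groups are apart in Dnmt1, Uhrf1 and Hells and overlap in the other 5 genes, and Tet1 lies below the band on every array.

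Hells (probe set 10462973) had the largest difference of the 8 genes. Its log2 intensity was 5.69, 4.73 and 4.91 in GFP-negative cells of numbers 1, 2 and 3, and 6.60, 6.49 and 6.96 in GFP-positive cells of the same numbers. All GFP-positive arrays lay above all GFP-negative ones, and GFP-negative 1 stood nearest to the other group. The GFP-negative and GFP-positive means were 5.11 ± 0.51 and 6.68 ± 0.25 (SD, n = 3 each, in this order in what follows), a difference of 1.57 ± 0.25 (95% interval 1.02 to 2.13, adjusted p = 0.0091). Between arrays of the same number the difference was 0.91, 1.76 and 2.05, above 0 in all 3. Without GFP-negative 3 the adjusted p was 0.064, and when all 35512 probe sets were tested alone it was 0.077, so the call of Hells did not hold there.

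Uhrf1 (probe set 10446074) differed less than Hells but with the smaller spread. It stood at 5.04, 5.14 and 5.30 in GFP-negative cells and at 6.05, 5.92 and 6.13 in GFP-positive cells of numbers 1, 2 and 3. Within a group the 3 arrays kept close together, and the gap between the groups was wider than either group. The means were 5.16 ± 0.13 and 6.03 ± 0.11 (SD, n = 3 each), with a difference of 0.87 ± 0.14 (95% interval 0.56 to 1.19, adjusted p = 0.011). Arrays of the same number differed by 1.01, 0.78 and 0.83. The call of Uhrf1 was lost without GFP-negative 1 (adjusted p = 0.067), GFP-positive 1 (0.058) or GFP-positive 3 (0.063), and without both arrays of number 2 (0.055).

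Dnmt1 (probe set 10591369), the maintenance methyltransferase itself, was 6.35, 6.23 and 6.72 in GFP-negative cells and 7.44, 6.95 and 7.30 in GFP-positive cells. The highest GFP-negative array, number 3, lay just under the lowest GFP-positive array, number 2. The means of Dnmt1 were 6.43 ± 0.26 and 7.23 ± 0.25 (SD, n = 3 each), and the difference of 0.80 ± 0.18 had a 95% interval of 0.38 to 1.21. With an unadjusted p of 0.0017 and an adjusted p of 0.083 it missed the threshold. A measured 1.74-fold level is therefore given for Dnmt1 as a value, not as a rise. Same-number differences of Dnmt1 were 1.08, 0.72 and 0.58. Array weights, which give arrays that deviate more a smaller part in the fit, took its adjusted p to 0.010, and over 15 alternatives it ran from 0.010 to 0.29.

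**Figure D2:**
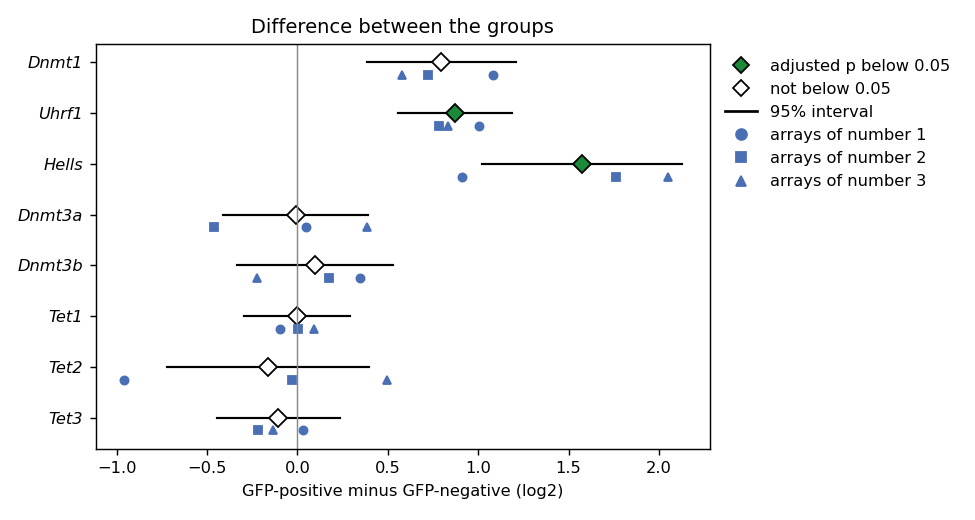
Difference between GFP-positive and GFP-negative cells (log2, horizontal axis) for the 8 genes, with diamonds for the difference, green where the adjusted p is below 0.05, lines for 95% intervals and small symbols for arrays of the same replicate number. The intervals of Dnmt1, Uhrf1 and Hells lie above 0, and those of the other 5 genes include 0.

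The start regions of the maintenance genes are shown because Hells and Uhrf1 rose, with Dnmt1 beside them as the remaining gene of that role, and because genes of DNA replication are often controlled by E2F factors, which bind sequences of the form written TTTCCCGC, TTTCGCGC, TTTGCCGC or TTTGGCGC. These 4 forms were searched on both strands in windows of 300 bases (250 before to 50 after each annotated start site) of RefSeq on build GRCm38.p6. Of 6 windows of the maintenance genes, 3 held a form, 1 each for Dnmt1 (of 3 windows), Uhrf1 (of 2) and Hells (of 1). None of the 7 windows of the de novo and Tet genes did, and 2.26% of all 32851 windows did. Windows of 1 gene can overlap, and a match describes letters, not a bound site. The stretches with a match are printed 5′ to 3′ on the strand of the gene, with the matched form or its reverse complement in capitals. The Hells stretch is the 250 bases before its start site (chr19:38930740-38930989, plus strand), with the match at position -62 from the start. The Uhrf1 stretch is chr17:56304117-56304146 (plus strand), with the match at position -185. For Dnmt1, chr9:20952824-20952853 (minus strand) holds a match at position -219 and chr9:20952574-20952603 (minus strand) a match at position 33, both counted from the same annotated start.
Hells: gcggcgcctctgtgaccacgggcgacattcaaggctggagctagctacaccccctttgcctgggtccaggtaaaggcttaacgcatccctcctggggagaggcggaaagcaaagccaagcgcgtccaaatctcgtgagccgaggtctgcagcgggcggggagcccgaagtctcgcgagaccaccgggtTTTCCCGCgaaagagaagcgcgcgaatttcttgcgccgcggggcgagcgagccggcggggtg
Uhrf1: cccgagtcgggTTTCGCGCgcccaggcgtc
Dnmt1 before the start: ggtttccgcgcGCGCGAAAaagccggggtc
Dnmt1 after the start: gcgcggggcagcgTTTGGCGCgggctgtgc

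The CCAAT box, bound by NF-Y, was in both Uhrf1 windows and in 2 of the 3 Dnmt1 windows and in the Tet3 window but not in the Hells window, with CCAAT read on both strands, and 37.4% of all windows held it. The letters TTTGAA, a cell cycle element of many mitotic genes, were in 1 Dnmt1 window and in the Dnmt3b window, against 17.9% of all windows. In the Dnmt1 window that holds the E2F forms, TTTGAA was absent. These matches were counted without regard to overlap with one another.

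The de novo methyltransferases did not differ detectably. Dnmt3a (probe set 10394209) was 6.14, 6.37 and 5.78 in GFP-negative cells and 6.19, 5.91 and 6.16 in GFP-positive cells. The GFP-positive values all lay inside the GFP-negative range. The means of Dnmt3a were 6.10 ± 0.30 and 6.09 ± 0.16 (SD, n = 3 each), and the difference was -0.01 ± 0.18 (95% interval -0.41 to 0.39, adjusted p = 1.0). Between arrays of the same number it was 0.05, -0.46 and 0.39, so the numbers differed in sign. Without both arrays of number 2 the Dnmt3a difference was 0.22 (adjusted p = 0.75).

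Dnmt3b (probe set 10477325) lay near the array medians, at 5.01, 4.64 and 5.04 in GFP-negative cells and 5.36, 4.81 and 4.82 in GFP-positive cells. GFP-positive 1 was above all the others, and the remaining 5 arrays were mixed between the groups. The Dnmt3b difference was 0.10 ± 0.19 (4.90 ± 0.23 in GFP-negative against 4.997 ± 0.31 in GFP-positive cells, SD, n = 3 each, 95% interval -0.33 to 0.53, adjusted p = 0.95). Without GFP-positive 1 the Dnmt3b difference was -0.08.

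Among the Tet dioxygenases, Tet1 was below the array median on all 6 arrays. Its highest probe set (10369702) was 4.28 on each GFP-negative array and 4.18, 4.29 and 4.37 on the GFP-positive arrays, and the other 2 (10369690 and 10369688) had group means from 3.75 to 3.93. The Tet1 difference was -0.0016 ± 0.13 (95% interval -0.29 to 0.29, adjusted p = 1.0). At values this near background a change of a weakly expressed gene was not detectable.

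Tet2 (probe set 10502284) had the widest spread of the Tet genes, at 5.68, 5.22 and 4.67 in GFP-negative cells and 4.72, 5.19 and 5.16 in GFP-positive cells. The GFP-negative values ran both above and below the GFP-positive ones, and GFP-negative 3 was under its array median. The means were 5.19 ± 0.51 and 5.02 ± 0.27 (SD, n = 3 each), with a difference of -0.16 ± 0.25 (95% interval -0.72 to 0.39, adjusted p = 0.93). Same-number differences were -0.96, -0.03 and 0.50, so the sign differed between numbers. The Tet2 difference was 0.08 without GFP-negative 1, -0.42 without GFP-negative 3 (adjusted p = 0.59) and -0.45 with array weights (adjusted p = 0.48).

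Tet3 (probe set 10545692) was 5.11, 5.39 and 5.48 in GFP-negative cells and 5.14, 5.17 and 5.35 in GFP-positive cells. The groups overlapped, and the difference was -0.11 ± 0.15 (5.33 ± 0.20 against 5.22 ± 0.11, SD, n = 3 each, 95% interval -0.45 to 0.23, adjusted p = 0.92). The second Tet3 probe set (10545682) gave -0.22 ± 0.25 (adjusted p = 0.92 over all probe sets).

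Whether a maintenance gene changed more than a de novo or Tet gene was asked from the log2 ratio of the 2 genes within each array, over all 15 pairs of 1 maintenance and 1 other gene. The ratio was higher in GFP-positive cells in all 15, by 0.70 to 1.74. In 14 of the 15 pairs the ratios of the groups did not overlap, with an exact two-sided permutation p of 0.10 each, the smallest this test can give with 3 against 3 arrays, or 0.107 after Benjamini-Hochberg adjustment over the 15 pairs. The pair that overlapped was Dnmt1 to Tet2 (exact permutation p = 0.20). The 15 pairs reuse the same genes and arrays, so they are not independent. How often the ratio of a maintenance gene to any other gene was apart was not counted. A limma fit of the ratios to all genes, set aside as described below, called 17438 to 19641 of 19937. The count of 14 is therefore not shown to be particular to the de novo and Tet genes. The ratio of Uhrf1 to Tet3 kept close within each group, at -0.17 ± 0.10 in GFP-negative cells and 0.81 ± 0.09 in GFP-positive cells (SD, n = 3 each), and changed by 0.97, 0.997 and 0.97 in numbers 1, 2 and 3. The ratio of Hells to Tet2 changed by 1.74, with 1.87, 1.79 and 1.55 in the 3 numbers. Other pairs were less even between numbers. Dnmt1 to Tet2 changed by 2.05, 0.75 and 0.08, and Hells to Dnmt3b by 0.56, 1.59 and 2.27.

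The proteins that work beside the maintenance genes held further rises. Of 8 measured partners, 4 rose and none fell, with a median difference of 0.81, where 1.55% of all genes rose. Like the 8 genes, this list and those that follow were chosen with earlier results of these data known, so their counts are description. Pclaf, a clamp-associated factor that takes part in recruiting Dnmt1 to replicated DNA, was 5.34, 4.995 and 4.89 in GFP-negative cells and 7.48, 7.59 and 7.18 in GFP-positive cells, 5.08-fold higher (difference 2.34 ± 0.17, adjusted p = 4.8e-05), and its other probe set differed by 2.55. Pcna, the replication clamp to which Dnmt1 binds, rose 2.23-fold from 9.65 ± 0.15 to 10.80 ± 0.13 (adjusted p = 0.0021). The other 2 rises are named because so few passed: Uhrf2, the paralog of Uhrf1, rose 2.09-fold (1.06 ± 0.17, adjusted p = 0.0091) and Lig1, the ligase of the lagging strand, 2.01-fold (1.01 ± 0.20, adjusted p = 0.037). Uhrf2 was 6.86, 7.32 and 7.20 in GFP-negative cells and 8.03, 8.18 and 8.35 in GFP-positive cells, so both Uhrf genes had groups that did not overlap. Cdca7, the partner of Hells in chromatin remodelling, did not pass (0.13 ± 0.14, adjusted p = 0.88), nor did Usp7, which deubiquitinates Uhrf1 and Dnmt1 (0.03 ± 0.13, adjusted p = 0.98). Hdac1 did not pass either, although its groups did not overlap (0.61 ± 0.19, adjusted p = 0.27). Hdac2 differed little (0.06 ± 0.18, adjusted p = 0.97).

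Of 6 genes linked to de novo methylation, Nsd2, a histone methyltransferase, rose 2.16-fold (1.11 ± 0.15, adjusted p = 0.0041) and no other did, Dnmt3l included (-0.05 ± 0.14, adjusted p = 0.97). Dnmt3l lay below the array median on all 6 arrays, where a level is hard to tell from background. In the list of histone H3 lysine 9 methylation and repression, 1 of 9 rose, Cbx5, which encodes the heterochromatin protein HP1 alpha (2.43-fold, 1.28 ± 0.15, adjusted p = 0.0010). None of 7 methyl-CpG binding proteins rose or fell (lowest adjusted p = 0.82), and the largest difference among them was that of Zbtb33, which encodes Kaiso (0.25 ± 0.18). None of 17 genes of oxidised base removal and Tet partnership rose or fell. Their largest difference was that of Gadd45b, a stress gene linked to active demethylation, at -0.61 ± 0.15 (5.77, 5.97 and 5.62 against 5.11, 5.11 and 5.33, adjusted p = 0.11). Over all genes 1.55% rose and 0.115% fell, so the absence of calls in lists this small is near that share.

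The maintenance genes were set beside 20 genes of DNA replication and 20 of mitosis as reference lists. Both lists were chosen with earlier results of these data known, and 1.55% of all genes rose. Of the replication genes 11 rose, with a median difference of 1.07 and a range from 0.03 to 2.73. All 20 mitosis genes rose, with a median of 3.88 and a range from 1.78 to 4.71, after a sort on a reporter named after cyclin B1. The differences of Dnmt1, Uhrf1 and Hells (0.80, 0.87 and 1.57) lay inside the range of the replication list and below the smallest of the mitosis list, and these differences between lists were not tested. The largest differences in these lists were those of Rrm2 and Rrm1, subunits of ribonucleotide reductase (2.73 ± 0.20 and 2.09 ± 0.19, adjusted p = 5.0e-05 and 0.00025), and of Prc1 and Ncapg (4.71 ± 0.15 and 4.57 ± 0.18, adjusted p = 1.1e-06 and 1.2e-06). Prc1 and Ncapg lay below the array medians on all 3 GFP-negative arrays (means 3.69 and 3.99). A level there is hard to tell from background, so the size of these 2 differences depends on that baseline.

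**Figure D3:**
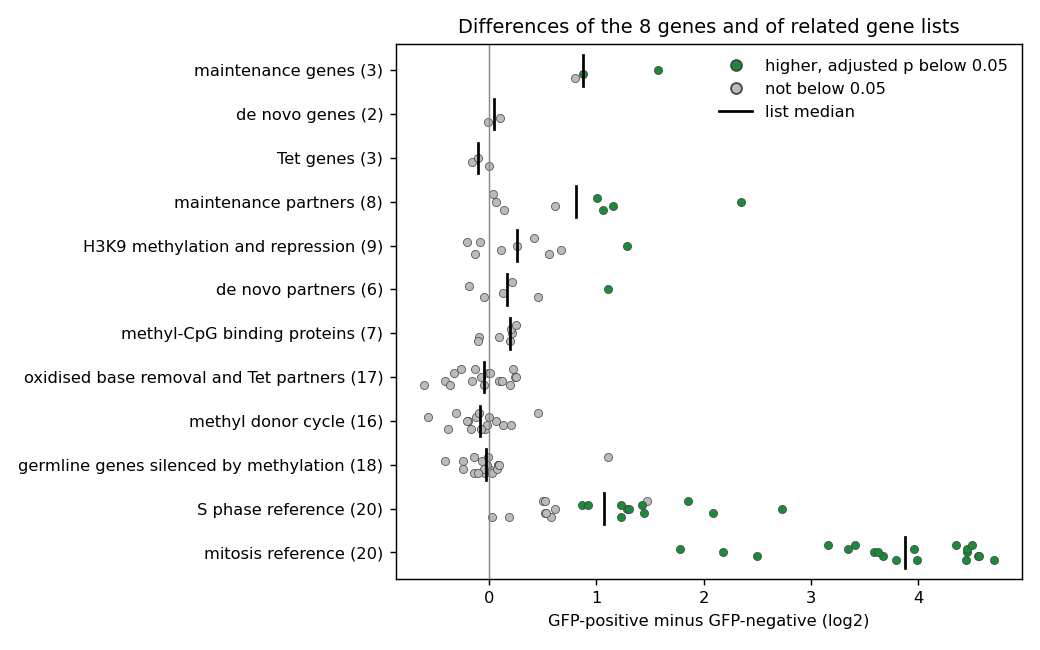
Difference between GFP-positive and GFP-negative cells (log2, horizontal axis) for the 8 genes by role and for lists of related genes, with 1 point per gene (green where higher at an adjusted p below 0.05), a black line at the list median and the number measured in brackets. The maintenance genes and their partners lie at medians of 0.87 and 0.81, the replication list (S phase reference) at 1.07 and the mitosis list at 3.88, while the de novo, Tet, methyl-CpG and base removal genes lie around 0.

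By the distance between profiles over the 6 arrays, each centred on its own mean, the 3 genes nearest to Dnmt1 were Chaf1a, Mplkip and Mphosph6 (root mean square distance 0.09, 0.11 and 0.11 on the log2 scale). Chaf1a, the large subunit of the histone chaperone that follows the replication fork, was 5.02, 4.75 and 5.28 in GFP-negative cells and 6.07, 5.69 and 6.05 in GFP-positive cells, and is also in the replication list. Nearest to Uhrf1 were Uchl5, Ccdc163 and Parp2 (0.06, 0.07 and 0.08), and nearest to Hells were Sae1, Pole and Fbxo5 (0.17, 0.17 and 0.23). Pole, the catalytic subunit of the leading strand polymerase, shared with Hells the high GFP-negative 1, at 4.93 against 4.02 and 4.14 in GFP-negative 2 and 3. All 9 distances rest on 6 arrays that carry the group difference itself.

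**Figure D4:**
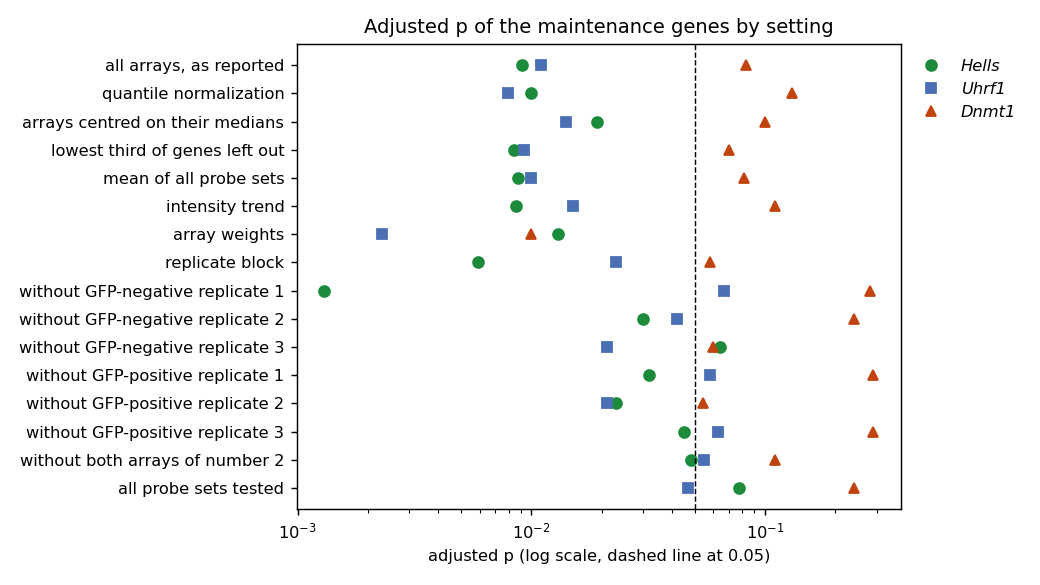
Adjusted p (horizontal axis, log scale, dashed line at 0.05) of Hells, Uhrf1 and Dnmt1 under the reported setting and 15 alternatives (rows). Hells stays below 0.05 in 13 and Uhrf1 in 11 of the 15, and Dnmt1 in 1, the array weights.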

How the data were processed

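Each array's deposited table column holds a single intensity for every probe set, computed by the authors using RMA according to the submitters' processing notes, with version and settings not given in the sources used here. Per the labels' protocols, 10 ng of total RNA per sample was amplified and labelled with biotin. The deposited intensities are linear (1.62 to 15836, array medians 24.3 to 26.7), so log2 was taken, with no further normalization. Of 35512 probe sets, 21789 have 1 gene symbol in the platform annotation, 1621 have several and 12102 none. Each of 19938 genes was represented by its single-symbol probe set of highest mean. The symbols of 21698 probe sets were matched by Entrez identifier and updated where the reference gave another.

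The groups were compared with limma 3.58.1 under R 4.3.3 (functions lmFit and eBayes, no covariate, no filter, 4 residual and 5.44 prior degrees of freedom). Benjamini-Hochberg adjustment was over all genes. Tested on simulated data (19938 genes, 3 arrays a group), the fit called 2%, 56%, 98% and 100% of genes changed by 0.5, 1, 2 and 3 (log2), and 7.25% of its calls were false. The planned limma fit of ratios between genes gave prior degrees of freedom that were infinite for Dnmt1 and Hells and 8.00 for Uhrf1, and it called 17438 to 19641 of 19937 ratios. All ratios of such a fit contain the same gene, so their spreads are not independent, and exact permutation tests over arrays replaced it.

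Per the design text both fractions were sorted from 3 livers. Whether a replicate number marks a mouse is not stated. Xist was high (9.03 and 9.80) and Eif2s3y low (1.98 and 2.24) in number 2 of both groups. On the other arrays Xist was 3.73 to 4.04 and Eif2s3y 6.78 to 7.31, so each group mixes both patterns of these sex-linked genes. The shared pattern ties the arrays of number 2 together but cannot tell numbers 1 and 3 apart. Same-numbered arrays deviated from their group means with correlations of 0.20, 0.06 and -0.05. Number 2, which the sex-linked genes tie together, gave only 0.06, so these correlations cannot decide whether arrays are paired. Pairing of numbers 1 and 3 was therefore not established, and differences between same-numbered arrays are given as description. The members and gene lists were chosen with earlier results of these data known. The rule for named genes took all 8 members, the 2 called genes of largest difference in each list of related or reference genes (the largest difference where none was called) and the 3 nearest profiles of each maintenance gene. Clec4f is named as the single marker called. Uhrf2, Lig1, Cdca7, Usp7, Hdac1, Hdac2, Dnmt3l and Mat1a were named after their values were seen. Alternatives were other scalings, a low-intensity filter, probe set rules, an intensity trend, array weights, a replicate block, other thresholds and leaving out arrays. Python 3.11.15 (pandas 2.3.3, numpy 2.4.6) served for tables, with figures drawn in matplotlib 3.10.9.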

Additional observations from a re-analysis of the deposited data

How the results depend on the processing

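Over 15 alternatives the differences of Dnmt1, Uhrf1 and Hells stayed above 0 (0.69 to 0.94, 0.81 to 0.94 and 1.38 to 1.86), and that of Tet3 stayed below 0 (-0.22 to -0.03). The count of the 8 genes that rose, and of the 3 maintenance genes that rose, was 2 as reported. It was 1 when all probe sets were tested alone, without both arrays of number 2 and at a threshold of 0.01, and 1 to 2 when single arrays were left out, where fewer samples entered the fit. It was 3, with Dnmt1 added, at a threshold of 0.10 and with array weights. No de novo or Tet gene was called in any of these settings. With the replicate block the adjusted p was 0.0059 for Hells, 0.023 for Uhrf1 and 0.058 for Dnmt1, the count stayed at 2, and no call changed. The ratios of maintenance to other genes were apart in 14 to 15 of 15 pairs when arrays were left out. The same-number changes were above 0 in all 3 numbers in 15 of 15 pairs (replicate block). Groups that are apart stay apart when arrays are left out, and their same-number changes are then all above 0. Neither count could therefore fall below 14, so neither tests how stable the result is.

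Signs near 0 turned. The Dnmt3a difference was 0.0005 with array weights, 0.22 without both arrays of number 2 and -0.17 to 0.13 when single arrays were left out. Leaving out single arrays gave -0.0829 to 0.19 for Dnmt3b, -0.0464 to 0.0472 for Tet1 and -0.42 to 0.0801 for Tet2, which was -0.45 with array weights. The cause was not tested. The median of all genes shifted by less than 0.1 under every scaling tried (-0.08 with quantile normalization). Tet1 was below the array median on all 6 arrays and Tet2 on 1, and no other member was on any. Dnmt3b and the GFP-negative arrays 2 and 3 of Hells lay near the medians.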

Other observations

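Germline genes that DNA methylation keeps silent in body tissues were mostly low in both sorted fractions. Of 18 such genes measured, none rose or fell (median difference -0.03), and 16 had both group means below the array medians. Of all genes 1.55% rose and 0.115% fell, so no call among 18 is near that share. Hormad1, a gene of meiotic chromosome axes, lay above the array medians and had the largest difference, at 6.72, 6.70 and 6.54 on the GFP-negative arrays and 7.28, 8.52 and 7.48 on the GFP-positive arrays. Its groups did not overlap, but the spread in GFP-positive cells was wide and the difference of 1.11 ± 0.28 did not pass (adjusted p = 0.13). The second Hormad1 probe set differed by 1.74 in the same direction.

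The cycle that supplies the methyl donor S-adenosylmethionine had 16 genes measured. None rose or fell, 11 lay below 0 and the median difference was -0.08. The absence of calls is near the share over all genes, of which 1.55% rose and 0.115% fell. Mat1a, the hepatic methionine adenosyltransferase, had a mean of 11.86 in GFP-negative cells and of 11.69 in GFP-positive cells (adjusted p = 0.87). The largest difference was that of Bhmt2, a homocysteine methyltransferase (-0.57 ± 0.26, adjusted p = 0.59).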
